A study of Mus musculus with 4 samples.

Results

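Slc38a5, Slc38a4, Slc38a2, Slc7a2, Slc7a5, Slc7a8 and Slc3a2 encode 7 of the proteins that carry amino acids across the cell membrane. They were taken by name as 7 of the 38457 mouse genes counted, all 7 were present in the 4 libraries, and they are described here in the alpha cells of the pancreatic islet and in the cells around them. The study compared islets labelled Sin3A mutant with islets labelled WT, in 2 libraries of each, made from dissociated mouse islet cells captured in droplets on the inDrop platform and amplified by CEL-Seq. The libraries are called mutant A, WT A, mutant B and WT B, A and B standing for a number in their titles that a mutant and a WT library share. The mutant allele, the cells that carry it, the strain and the age of the animals were not given in the sources used here, and nothing but the genotype is labelled as different between the groups.

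Alpha cells secrete glucagon, and glucagon drives the uptake and breakdown of amino acids in the liver. Amino acids in turn stimulate glucagon secretion and, through the kinase complex mTORC1, the growth of the alpha cell population, a loop in which Slc38a5 is known from mice whose glucagon signalling is blocked. Slc38a5, Slc38a4 and Slc38a2 are sodium-coupled carriers of small neutral amino acids such as glutamine and alanine. Slc7a2 carries the cationic amino acids arginine, lysine and ornithine. Slc7a5 and Slc7a8 are light chains that exchange large neutral amino acids such as leucine, and both reach the membrane bound to the heavy chain Slc3a2.

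Sin3a, the targeted gene, was counted at 54.1 and 21.3 CPM (counts scaled to a total of 1000000) over all cells of mutant A and mutant B, against 27.5 and 43.5 CPM in WT A and WT B. It was higher in mutant A than in WT A and lower in mutant B than in WT B. CEL-Seq reads the 3′ ends of transcripts and the changed part of the gene is not given, so this count checks neither label; the libraries are named as they were labelled. The libraries held 9282495 to 12835199 counts, with medians of 4448.5 to 9997 counts per kept cell. Pairs of libraries shared 12 to 42 barcodes. Neither pair of replicates looked like 1 library deposited again (chi-square over its degrees of freedom 162 for the mutant and 74.7 for the WT pair).

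Cells were gated by hormone. A cell was called alpha-gated when Gcg, which encodes glucagon, held at least 2% of its counts and neither the insulin genes, Sst nor Ppy reached that share. The beta, delta and pancreatic polypeptide (PP) gates were set in the same way with those 3 hormones. Of 6526 kept cells 1140 were alpha-gated, 127 and 373 in mutant A and mutant B and 126 and 514 in WT A and WT B. There were 2880 beta-gated, 216 delta-gated and 69 PP-gated cells, and cells low in all hormones were named by marker lists, among them 280 endothelial-like, 762 mesenchymal-like and 217 ductal-like cells. The label was checked on 6 alpha markers. All 6 were detected in both gates of every library, and they summed to 2892 to 7519 CPM in alpha-gated cells, against 563 to 835 CPM in beta-gated cells. Irx1, a transcription factor gene of alpha cells, stood at 366 to 491 CPM in alpha-gated cells, against 0.934 to 4.09 CPM in beta-gated cells.

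The stretches before the RefSeq start sites of Slc38a5, Slc7a8 and Slc3a2 are shown because these genes were counted higher in alpha-gated than in delta-gated cells and have a promoter in the RefSeq table used (build GRCm38.p6), which matched 5 of the 7 genes. They lie at chrX:8271131-8271380 on the plus strand, chr14:54781887-54782136 on the minus strand and chr19:8713898-8714147 on the minus strand. Each runs 5′ to 3′ over the 250 bases before the RefSeq start, and capitals mark matches to the motifs searched. The GENCODE M21 annotation places these stretches otherwise. Slc38a5 starts at 8271133 there, so nearly all of its stretch lies inside the gene. Slc3a2 spans 8706882 to 8723369 on the minus strand, so its stretch lies wholly inside the gene. Slc7a8 starts at 54781946, within its stretch.
Slc38a5: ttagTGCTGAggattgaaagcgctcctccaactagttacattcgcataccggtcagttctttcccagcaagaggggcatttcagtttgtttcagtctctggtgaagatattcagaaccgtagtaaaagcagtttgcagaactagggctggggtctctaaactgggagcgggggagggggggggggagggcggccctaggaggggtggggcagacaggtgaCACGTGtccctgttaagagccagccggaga
Slc7a8: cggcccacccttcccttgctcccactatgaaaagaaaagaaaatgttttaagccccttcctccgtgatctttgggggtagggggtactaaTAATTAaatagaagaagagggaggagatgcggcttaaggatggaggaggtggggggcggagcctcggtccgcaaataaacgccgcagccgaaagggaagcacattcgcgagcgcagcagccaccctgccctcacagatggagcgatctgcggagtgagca
Slc3a2: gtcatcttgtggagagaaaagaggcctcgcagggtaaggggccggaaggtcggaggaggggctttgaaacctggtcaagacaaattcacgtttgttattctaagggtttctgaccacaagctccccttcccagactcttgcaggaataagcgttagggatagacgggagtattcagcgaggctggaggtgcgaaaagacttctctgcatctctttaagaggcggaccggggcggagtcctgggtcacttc
Of 6 motifs searched on both strands, the E-box CACGTG lay in the Slc38a5 stretch at position -30 and the Maf recognition core TGCTGA at -246, counted with the RefSeq start as 0. The homeodomain core TAATTA lay in the Slc7a8 stretch at -160. In windows of 300 bases around 32851 RefSeq starts, CACGTG was found in 7.15%, TGCTGA in 19.5% and TAATTA in 5.29%. The amino acid response element TGATGNAAN, the cAMP response element TGACGTCA and the forkhead site TGTTTAC were found in 3.95%, 1.79% and 3.65% of those windows and in none of the 3 stretches. A match is a description of letters and no test of binding.

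In the GRCm38 annotation (GENCODE M21) Slc38a5 spans chromosome X from 8271133 to 8280179 on the plus strand. Slc38a2 and Slc38a4 both lie on the minus strand of chromosome 15, from 96687392 to 96699730 and from 96994820 to 97055956. Slc7a2 spans 40862396 to 40922308 on the plus strand of chromosome 8, Slc7a5 spans 121881150 to 121907694 on its minus strand, Slc7a8 spans 54722209 to 54781946 on the minus strand of chromosome 14, and Slc3a2 spans 8706882 to 8723369 on the minus strand of chromosome 19. Gm26584 overlaps Slc7a2 and Gm20388 overlaps Slc7a5 on the opposite strand, and use of strand in the counting was not given in the sources used here, so counts of these 2 genes may hold reads of their neighbours.

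Slc38a5 set alpha-gated cells apart from every other endocrine gate. It stood at 1489 and 1117 CPM in the alpha-gated cells of mutant A and mutant B and at 2093 and 1139 CPM in those of WT A and WT B, a mean of 1460 ± 455 CPM (SD, n = 4 libraries). In beta-gated cells it stood at 107 CPM in mutant A, 372 CPM in WT A, 349.8 CPM in mutant B and 83.4 CPM in WT B, a mean of 228 ± 154 CPM (SD, n = 4). The lowest alpha-gated value was above the highest beta-gated one, and within a library the level was 3.19 to 13.9 times as high in alpha-gated cells. The beta-gated libraries fell into a high pair, WT A and mutant B, and a low pair, mutant A and WT B.

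In delta-gated cells Slc38a5 stood at 32.1 and 64.4 CPM in mutant A and mutant B and at 65.5 and 32.3 CPM in WT A and WT B, from 5 to 32 counts. In PP-gated cells it stood at 334 and 16.1 CPM in mutant A and mutant B and at 119 and 320.0 CPM in WT A and WT B, from 1 to 48 counts in 14 to 21 cells. Endothelial-like cells gave 0 to 10.3 CPM and mesenchymal-like cells 0 to 9.87 CPM. Ductal-like cells gave 5.14 to 100.1 CPM, the highest of them in WT A. In order of the mean, alpha-gated cells came first, then beta-gated (228 CPM), PP-gated (197 CPM), delta-gated (48.6 CPM), ductal-like (31.4 CPM), endothelial-like (7.42 CPM) and mesenchymal-like cells (5.25 CPM). The libraries of alpha-gated cells overlapped with those of no other group in this list, while each of the other groups overlapped with its neighbours in the order.

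**Figure D1:**
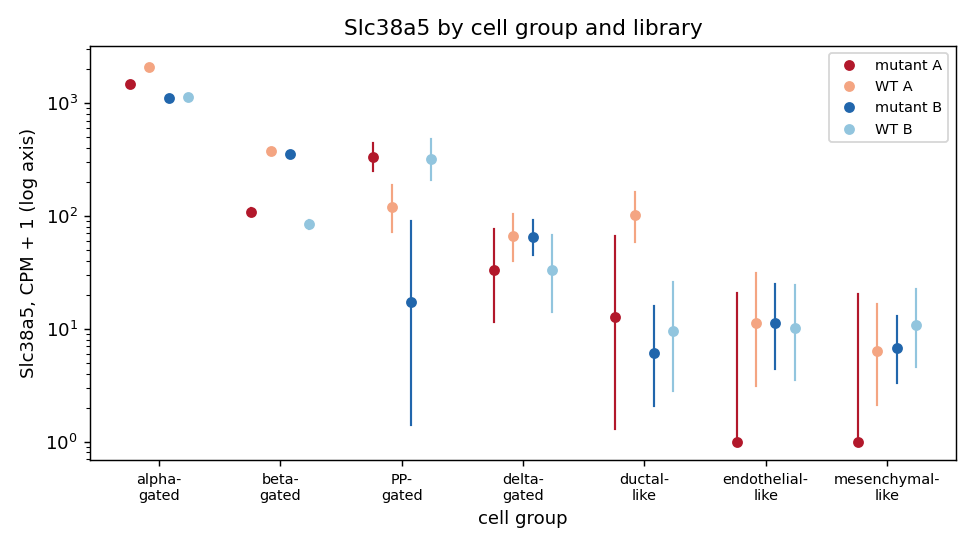
Slc38a5 in CPM plus 1 (log axis) for 7 cell groups, with a point for each of the 4 libraries and bars for the exact 95% Poisson interval, which covers counting error only. Alpha-gated cells lie between 1117 and 2093 CPM, above beta-gated cells at 83.4 to 372 CPM, and endothelial-like and mesenchymal-like cells lie at 10.3 CPM or less.

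The level in beta-gated cells was set beside the Gcg counts that those cells also carried. Gcg stood at 522 to 1603 CPM in beta-gated cells. At the ratio of Slc38a5 to Gcg found in alpha-gated cells of the same library, that much Gcg would be accompanied by 4.33 to 10.05 CPM of Slc38a5, against the 83.4 to 372 CPM counted. For Slc7a2 the accompanying level would be 0.978 to 2.72 CPM, against 98.25 to 152 CPM counted in beta-gated cells. These figures take the ratio of the alpha-gated cells as given, and the part of alpha cell RNA in the beta-gated levels was not tested.

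Counts per cell were compared after each cell was thinned to 2000 counts, which left out 136 alpha-gated and 301 beta-gated cells with fewer. Slc38a5 was then seen in 64.2% and 73.7% of alpha-gated cells of mutant A and mutant B and in 83.3% and 65.4% of those of WT A and WT B. In beta-gated cells the shares were 16.8%, 35.3%, 32.7% and 14.7% in mutant A, WT A, mutant B and WT B, and in endothelial-like cells 0% to 3.85%. In mutant A 0 of 31 endothelial-like cells held a count, which allows a share of up to 11.2% (exact 95% binomial bound, counting error only). The lowest alpha-gated share was above the highest beta-gated share. Without thinning the shares were 79.8% to 88.9% of alpha-gated cells, at median depths of 4684 to 8087.5 counts, 32.7% to 66.6% of beta-gated cells, at 6099.5 to 12966.5 counts, and 0% to 6.25% of endothelial-like cells, at 3562 to 6332.5 counts. The per-cell counts of alpha-gated cells were uneven, with a mean of 2.63 and a variance of 10.4 in mutant A, 2.12 and 5.38 in mutant B, 4.21 and 24.9 in WT A and 2.05 and 7.43 in WT B. The variance was above the mean in all 4 libraries, by less in both B libraries. Between 19% and 37.7% of alpha-gated cells held 4 or more Slc38a5 counts of the 2000, against 0% to 4.39% of beta-gated cells.

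**Figure D2:**
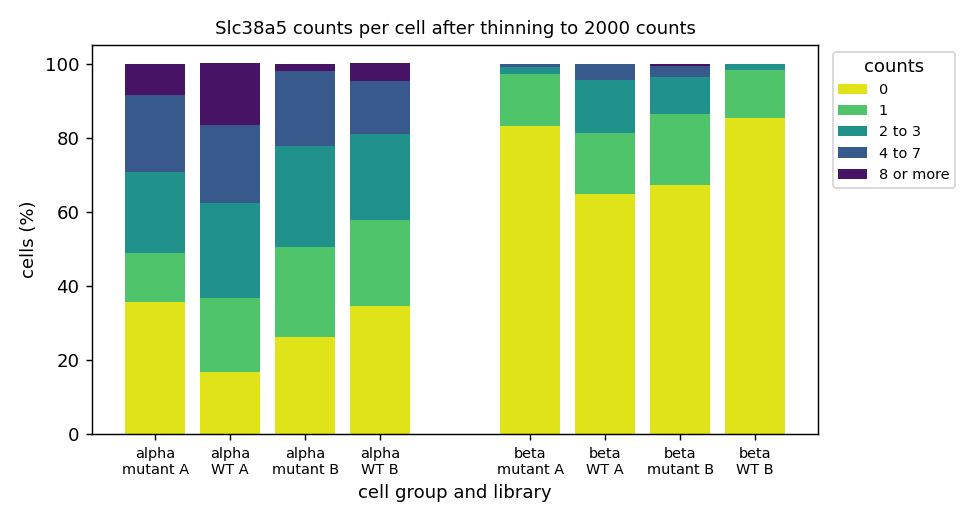
Share of cells (percent) by the number of Slc38a5 counts in a cell thinned to 2000 counts, as stacked bars for alpha-gated and beta-gated cells of each of the 4 libraries. Cells with 0 counts make up 16.7% to 35.8% of alpha-gated cells and 64.7% to 85.3% of beta-gated cells.

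Within the alpha gate, cells were grouped by the share of Gcg in their counts, and Slc38a5 was given as CPM of their counts outside the hormone genes and Iapp, Pyy and Ttr. In cells with 2% to 5% Gcg it stood at 564 in mutant B (16 cells), 1470 in WT A (11 cells) and 669 in WT B (29 cells). In cells with 5% to 10% Gcg it stood at 1755 in mutant A (15 cells), 1152 in mutant B (53 cells), 2659 in WT A (32 cells) and 2320 in WT B (25 cells). In cells with 10% to 20% Gcg it stood at 1989 in mutant A (79 cells), 1423 in mutant B (227 cells), 2478 in WT A (75 cells) and 1401 in WT B (250 cells). The level was lowest at 2% to 5% Gcg in the 3 libraries with at least 10 such cells, but it did not climb steadily with Gcg, and in WT A and WT B it was highest at 5% to 10%. Cells with 2% to 5% Gcg were shallower in mutant B and WT B, at medians of 3507.5 and 2411 counts, against 4935 and 5160 at 10% to 20%, and the part of depth was not tested. Above 20% Gcg Slc38a5 stood at 1093 in mutant A (30 cells), 1385 in mutant B (77 cells) and 1401 in WT B (210 cells). These cells were shallow in mutant A, at a median of 2673 counts, against 7156 at 10% to 20%. In mutant B and WT B their medians were 4400 and 5333.5 counts, and the part of depth was not tested here either.

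Cells that passed 2 hormone gates entered no comparison. Those that passed the alpha and the beta gate had Slc38a5 at 414 CPM in mutant A (54 cells) and 637 CPM in WT A (20 cells), between the levels of the 2 gates in those libraries.

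Slc7a2, the arginine carrier, was the other gene higher in alpha-gated cells than in all 3 other endocrine gates. It stood at 257 and 276 CPM in the alpha-gated cells of mutant A and mutant B and at 350 CPM in WT A and 309 CPM in WT B. In beta-gated cells it stood at 98.4 and 111 CPM in mutant A and mutant B and at 98.25 and 152 CPM in WT A and WT B. In delta-gated cells it stood at 0 and 44.3 CPM in mutant A and mutant B and at 40.05 and 18.4 CPM in WT A and WT B, from 0 to 22 counts. The lowest alpha-gated value was above the highest value of the beta, delta and PP gates, the last at 64.4 to 173 CPM. Mesenchymal-like cells gave 78.6 to 98.1 CPM, and endothelial-like and ductal-like cells gave 21.55 CPM or less. After thinning, 38.8% to 49.1% of alpha-gated cells held a count, against 14.8% to 23.5% of beta-gated and 0% to 6.45% of endothelial-like cells.

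The exchanger Slc7a8 stood at 165 and 223 CPM in the alpha-gated cells of mutant A and mutant B and at 265 and 241 CPM in those of WT A and WT B. In beta-gated cells it stood at 182 and 253 CPM in mutant A and mutant B and at 224 and 281 CPM in WT A and WT B, so the 2 gates overlapped. Delta-gated cells gave 36.9 to 129 CPM, below every alpha-gated value. Macrophage-like cells, with 10 to 24 cells in 3 libraries, gave 365 to 504 CPM, above every endocrine gate.

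Slc3a2, the heavy chain, stood at 139 and 148 CPM in the alpha-gated cells of mutant A and mutant B and at 195 and 132 CPM in those of WT A and WT B. In beta-gated cells it stood at 226 and 218 CPM in mutant A and mutant B and at 307 and 219 CPM in WT A and WT B. All 4 beta-gated values were above all 4 alpha-gated ones, with the alpha-gated level at 0.601 to 0.676 times the beta-gated level within a library. Delta-gated cells gave 70.5 to 133 CPM, overlapping with the alpha-gated values. Its highest level was again in macrophage-like cells, at 357 to 757 CPM in 3 libraries.

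Slc7a5, the second light chain, went with the number in the titles. It stood at 77.97 CPM in mutant A and 146 CPM in WT A among alpha-gated cells, and at 26.9 CPM in mutant B and 32.5 CPM in WT B. In beta-gated cells it stood at 103 CPM in mutant A, 185 CPM in WT A, 35.3 CPM in mutant B and 32.3 CPM in WT B. Both A libraries were above both B libraries in each gate, and the A libraries were also the deeper ones, with medians of 7605 and 9997 counts per cell against 4448.5 and 5306 in B. The part of depth in this difference was not tested. Slc38a4 in both gates and Slc38a5 in alpha-gated cells also stood higher in both A libraries than in both B libraries. In beta-gated cells Slc7a2, Slc7a8 and Slc38a2 went the other way, with both B libraries above both A libraries.

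Slc38a4 stood at 99.7 and 54.3 CPM in the alpha-gated cells of mutant A and mutant B and at 106 and 55.96 CPM in those of WT A and WT B. In beta-gated cells it stood at 106 and 81.6 CPM in mutant A and mutant B and at 124 and 87.5 CPM in WT A and WT B. The gates overlapped across libraries, but within each library the alpha-gated value was the lower, at 0.639 to 0.939 times the beta-gated value. PP-gated cells gave 0 to 13.3 CPM, from 0 or 1 count in each library, while ductal-like cells gave 56.6 to 329.7 CPM. Endothelial-like cells gave 0 to 2.275 CPM.

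Slc38a2, which cells induce when amino acids are short, was lower in alpha-gated and beta-gated cells than in the mesenchymal-like and endothelial-like cells around them. It stood at 49.9 and 48.5 CPM in the alpha-gated cells of mutant A and mutant B and at 44.9 and 66.2 CPM in those of WT A and WT B. In beta-gated cells it stood at 48.2 and 62.4 CPM in mutant A and mutant B and at 60.4 and 77.8 CPM in WT A and WT B. Mesenchymal-like cells gave 158 to 202 CPM and endothelial-like cells 100.1 to 209 CPM, above all alpha-gated and beta-gated values.

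**Figure D3:**
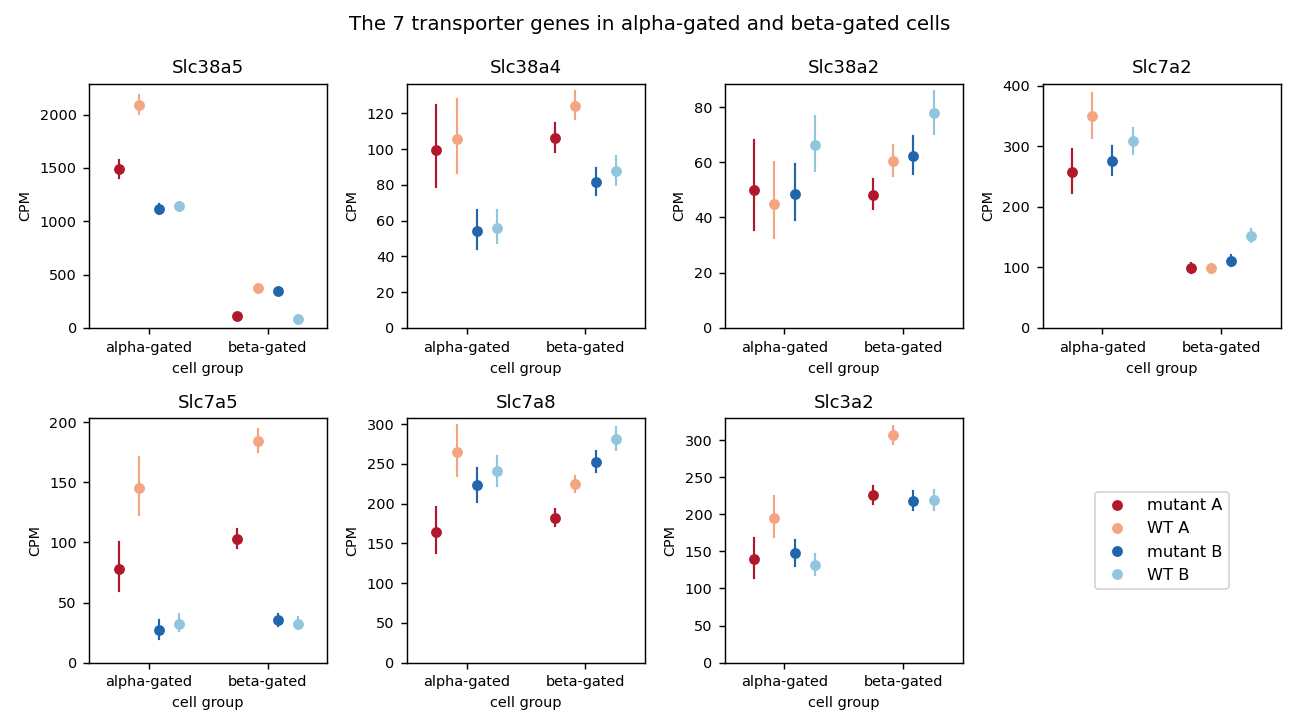
The 7 genes in CPM in alpha-gated and beta-gated cells, with a point for each library and bars for the exact 95% Poisson interval, each panel on its own axis from 0. Slc38a5 and Slc7a2 are higher in alpha-gated cells in all 4 libraries, and Slc3a2 is lower in all 4. Slc7a5 and Slc38a4 lie higher in the A libraries than in the B libraries in both gates.

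Alpha-gated and beta-gated cells were compared on counts summed per library, with the library as a block, by edgeR's quasi-likelihood F test and Benjamini-Hochberg adjustment over 16516 genes. Slc38a5 was 2.78 ± 0.29 higher on the log2 scale (SE, adjusted p = 1.94e-05), and Slc7a2 was 1.24 ± 0.13 higher (adjusted p = 1.695e-05). Slc3a2 was lower, at -0.80 ± 0.12 (adjusted p = 0.0003853), and Slc38a4 was lower, at -0.54 ± 0.12 (adjusted p = 0.006021). The other 3 did not pass, with Slc38a2 at -0.38 ± 0.14 (adjusted p = 0.0664), Slc7a5 at -0.44 ± 0.15 (adjusted p = 0.0561) and Slc7a8 at -0.22 ± 0.12 (adjusted p = 0.234). So 2 of the 7 genes were called higher, where 9.44% of all genes tested were, and 2 were called lower, where 13% of all genes were. The median log2 difference of the 7 was -0.38, against 0.03 over all genes tested.

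Without the library block the calls of Slc38a4 (-0.50, adjusted p = 0.4301) and Slc3a2 (-0.78, adjusted p = 0.1026) were lost and those of Slc38a5 and Slc7a2 were not. Without a filter on low counts all 7 genes were called, 5 of them lower, in a fit in which the median of all genes moved by -0.18.

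Markers of other cells moved with the gates. The 7 beta markers summed to 1907 to 4579 CPM in alpha-gated cells, with 6 or 7 of them detected in a library, against 27970 to 42190 CPM in beta-gated cells. The 7 endothelial markers summed to 64.3 to 400.1 CPM in alpha-gated cells, highest in mutant A, against 20.9 to 75.3 CPM in beta-gated cells, and the 9 mesenchymal markers to 102.5 to 444 CPM, highest in WT A, against 73.9 to 152 CPM. Slc38a5 stood at 10.3 CPM or less in the endothelial-like and mesenchymal-like cells themselves, below both gates in every library, while Slc38a2 and Slc3a2 were counted in them. The 4 delta markers summed to 1272 to 3883 CPM in alpha-gated cells, against 334.5 to 577.5 CPM in beta-gated cells. Genes high in delta-gated cells did not all follow that sum. Sst stood at 119 to 503 CPM in alpha-gated cells, against 273 to 676 CPM in beta-gated cells. Hhex stood at 0 to 27.2 CPM in alpha-gated cells, against 359 to 1056 CPM in delta-gated cells. The part of other cells in the differences was not tested.

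Against delta-gated cells Slc38a5 was 4.79 ± 0.23 higher on the log2 scale (adjusted p = 1.437e-13), Slc7a2 3.33 ± 0.29 higher (adjusted p = 8.598e-09) and Slc7a8 1.61 ± 0.24 higher (adjusted p = 3.731e-05) by the same test. Slc7a2 had 0 counts in the delta-gated cells of mutant A, so its fitted value depends on the prior count there; in the other libraries its level was 6.24 to 16.7 times as high in alpha-gated cells. Slc3a2 was 0.62 ± 0.20 higher (adjusted p = 0.0468), and this call was lost in 7 of 14 alternatives, among them DESeq2 (adjusted p = 0.1698) and leaving out mutant A (adjusted p = 0.1115), WT A (adjusted p = 0.1704) or WT B (adjusted p = 0.1787). Over the 14 alternatives the adjusted p lay between 0.009099 and 0.3502. Beta markers summed to 1907 to 4579 CPM in alpha-gated cells, against 13940 to 20870 CPM in delta-gated cells, with 5 or 6 of 7 detected there. Mesenchymal and Schwann cell markers stood highest in the delta-gated cells of mutant A, at 782 and 237 CPM, and the part of these markers was not tested. In this comparison 4 of 7 genes were called higher, where 5.37% of 9640 genes were, and 0 were called lower, where 6.67% were. At an unadjusted p under 0.05 the number lower was also 0, and DESeq2 called 0 of the 7 lower, where it called 3.55% of all genes lower.

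Against PP-gated cells Slc38a5 was 2.98 ± 0.25 higher (adjusted p = 3.506e-19), Slc38a4 3.64 ± 0.64 higher (adjusted p = 1.46e-05) and Slc7a2 1.26 ± 0.25 higher (adjusted p = 0.0001879) by edgeR. These are 3 of 7 genes called higher, where 1.4% of 8292 genes were. Slc38a4 had at most 1 count in the PP-gated cells of a library, so its fitted value depends on the prior count and is no bound. The PP-gated sums are small, at 62109 to 159755 counts, and in the fit with the gates set at 5% of counts, which left 2 of the 4 libraries with enough cells, the calls of Slc38a4 (2.89, adjusted p = 0.07275) and Slc7a2 (1.10, adjusted p = 0.1434) were lost, as was that of Slc7a2 without the library block (adjusted p = 0.1022). PP-gated cells carried beta markers at 6201 to 11240 CPM, against the 1907 to 4579 CPM in alpha-gated cells given above, and erythroid markers at 8161 CPM in WT B and 0 in the other 3 libraries; their part was not tested. The 3 comparisons share the alpha-gated sums and are not independent of each other.

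**Figure D4:**
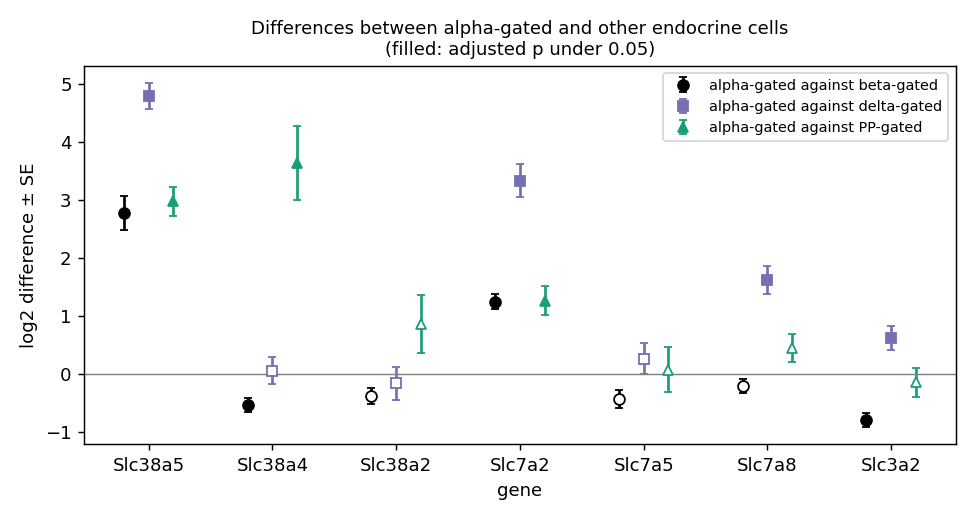
Log2 differences of the 7 genes between alpha-gated cells and beta-gated, delta-gated or PP-gated cells, with bars for the SE and filled symbols where the adjusted p is under 0.05 by edgeR. Slc38a5 and Slc7a2 are above 0 in all 3 comparisons, while Slc3a2 and Slc38a4 are below 0 against beta-gated cells.

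Other genes of amino acid handling were counted in the same comparison of alpha-gated with beta-gated cells. Of 34 other amino acid transporters 31 were tested, 1 was higher and 7 were lower, where 9.44% and 13% of all genes tested were higher and lower, and their median log2 difference was -0.23. The neutral amino acid exchanger Slc1a4 was lower at -2.56 ± 0.25 (adjusted p = 1.214e-05), Slc38a10 was lower at -1.17 ± 0.12 (adjusted p = 1.48e-05) and the taurine transporter Slc6a6 was lower at -0.79 ± 0.12 (adjusted p = 0.0003548). The transporter of this list that was higher was Slc6a17, at 1.00 ± 0.32 (adjusted p = 0.0427), which DESeq2 did not call.

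Of 26 genes of the ATF4 response, the program that cells turn on when amino acids are short, 25 were tested, 2 were higher and 12 were lower, beside the same 9.44% and 13% of all genes, with a median of -0.26. Atf5 was lower at -1.80 ± 0.15 (adjusted p = 2.602e-06) and the proline synthesis gene Pycr1 was lower at -1.65 ± 0.19 (adjusted p = 3.368e-05). Sesn2, which encodes a leucine sensor that restrains mTORC1, was higher at 1.31 ± 0.14 (adjusted p = 1.821e-05), as was the serine synthesis gene Psat1 at 0.96 ± 0.17 (adjusted p = 0.001113).

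Of 30 genes of amino acid sensing by mTORC1, 28 were tested, 3 were higher and 4 were lower, with a median near 0. These shares lie near the 9.44% and 13% of all genes. Rragb, a Rag GTPase that brings mTORC1 to the lysosome, was higher at 2.59 ± 0.21 (adjusted p = 2.258e-06). Castor2 (Gatsl2 in the files), which encodes a binding partner of the GATOR2 complex, was higher at 1.29 ± 0.12 (adjusted p = 5.802e-06), and the folliculin gene Flcn was lower at -0.71 ± 0.14 (adjusted p = 0.002653).

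Of 21 amino acid enzymes 19 were tested, 3 were higher and 4 were lower, beside 9.44% and 13% of all genes, with a median of -0.29. Glud1, which converts glutamate to 2-oxoglutarate, was higher at 1.43 ± 0.13 (adjusted p = 6.312e-06). Arg1, which breaks down arginine, was higher at 2.94 ± 0.29 (adjusted p = 1.295e-05), while against delta-gated cells it was lower, at -3.06 ± 0.18 (adjusted p = 7.811e-12). Bckdhb, a subunit of the complex that breaks down branched-chain amino acids, was lower at -2.05 ± 0.20 (adjusted p = 9.079e-06).

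Cycling cells were set against the other cells of the same gate, a cell being called cycling when 8 proliferation markers held at least 2 counts after thinning to 2000. There were 15, 53 and 42 cycling alpha-gated cells in mutant A, mutant B and WT B. WT A had 9, under the 10 cells set for a sum, and did not enter the fit.

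Slc38a5 differed little between them. It stood at 1579, 1199 and 1378 CPM in the cycling alpha-gated cells of mutant A, mutant B and WT B, against 1490, 1108 and 1127 CPM in the other alpha-gated cells of those libraries. In WT A, with 9 cycling cells, it stood at 2511 CPM in cycling and 2060 CPM in other cells. The cycling value was the higher in each of the 4 libraries, by 1.06 to 1.22 times, and edgeR gave a log2 difference of 0.12 ± 0.12 (adjusted p = 0.723, 3 libraries), within its error. Without a filter on low counts the difference was -0.10, in a fit that moved the median of all genes by -0.22.

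Slc7a2 stood at 223, 210.3 and 241 CPM in the cycling alpha-gated cells of mutant A, mutant B and WT B, against 263, 292 and 317 CPM in the other cells. It was the lower in cycling cells of each library, WT A included (174 against 369 CPM, from 15 counts in cycling cells). The log2 difference was -0.43 ± 0.18 by edgeR, with an unadjusted p of 0.01965 and an adjusted p of 0.178. With all 4 libraries and sums of at least 5 cells, an alternative chosen after the data were seen, it was -0.57 (adjusted p = 0.02428), and over its 14 alternatives the adjusted p fell under 0.05 in 2.

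None of the 7 genes was called in cycling alpha-gated cells by edgeR, where 6.35% of 8020 genes were, and 1 of 7 had an unadjusted p under 0.05. DESeq2 also called 0 of the 7, where it called 2.85% of 9024 genes. Cycling cells were deeper in all 4 libraries, with medians of 6050.5 to 8893 counts, against 4680 to 8403 in the other alpha-gated cells. Beta markers summed to 2980, 6632 and 3715 CPM in the cycling alpha-gated cells of mutant A, mutant B and WT B, against 1684, 4182 and 2686 CPM in the other cells, while in WT A they summed to 2883 CPM in cycling and 3372 CPM in other cells. The part of depth and of these markers was not tested.

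Of 15 genes of the ATF4 response tested in cycling alpha-gated cells edgeR called 2 higher and 1 lower, where 5.16% and 1.18% of all genes were, and DESeq2 called 1 higher and 0 lower. Of 10 amino acid enzymes each tool called 1 lower. Psat1 was higher at 2.03 ± 0.29 (adjusted p = 1.759e-07) and the mitochondrial folate enzyme gene Mthfd2 was higher at 1.61 ± 0.39 (adjusted p = 0.002527), while Ppp1r15a, a phosphatase subunit gene of the stress response, was lower at -0.67 ± 0.19 (adjusted p = 0.01388). Glud1 was lower at -0.55 ± 0.14 (adjusted p = 0.004333). None of 11 other transporters and none of 25 mTORC1 genes was called by edgeR or by DESeq2, with 3 of each under an unadjusted p of 0.05 by edgeR. These were the transporters Slc7a14 (-0.47 ± 0.18, adjusted p = 0.1238), Slc6a6 (-0.56 ± 0.22, adjusted p = 0.1356) and Slc1a5 (1.10 ± 0.47, adjusted p = 0.1865), and the mTORC1 genes Rragc (-0.82 ± 0.29, adjusted p = 0.08169), Wdr24 (-0.45 ± 0.18, adjusted p = 0.1548) and Flcn (-0.81 ± 0.38, adjusted p = 0.2546). The enzyme genes Got1 (1.05 ± 0.40, adjusted p = 0.1185) and Glul (-0.43 ± 0.17, adjusted p = 0.131) also missed the threshold. In cycling beta-gated cells edgeR called Psat1 (1.96 ± 0.17, adjusted p = 1.748e-10) and Mthfd2 (0.85 ± 0.13, adjusted p = 1.241e-05) higher too. It called Ppp1r15a lower there (-0.81 ± 0.09, adjusted p = 9.858e-08), while Glud1 did not pass (-0.14 ± 0.08, adjusted p = 0.3069).

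In beta-gated cells Slc7a8 was lower in cycling cells. It stood at 152 and 157 CPM in the cycling beta-gated cells of mutant A and mutant B and at 158 and 189 CPM in those of WT A and WT B, against 183 and 279 CPM in the other beta-gated cells of mutant A and mutant B and 237 and 304 CPM in those of WT A and WT B. The log2 difference was -0.64 ± 0.09 (adjusted p = 4.917e-06), lower in 4 of 4 libraries, and it lost its call without the library block (adjusted p = 0.2799). It was 1 of 7 genes called, in a comparison in which 16% of 14221 genes were called and 7.46% were called lower. Cycling beta-gated cells were deeper in each library, most clearly in B. Medians were 8242.5 counts in cycling and 6466 in other cells of mutant B, and 8186 and 6334.5 in those of WT B. The part of depth was not tested. In alpha-gated cells Slc7a8 stood at 139, 153 and 288 CPM in cycling cells of mutant A, mutant B and WT B, against 168, 237 and 237 CPM in other cells, lower in 2 of these 3, and in WT A at 128 CPM, from 11 counts, against 274.5 CPM. Whether the beta-gated and the alpha-gated difference differ was not tested.

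**Figure D5:**
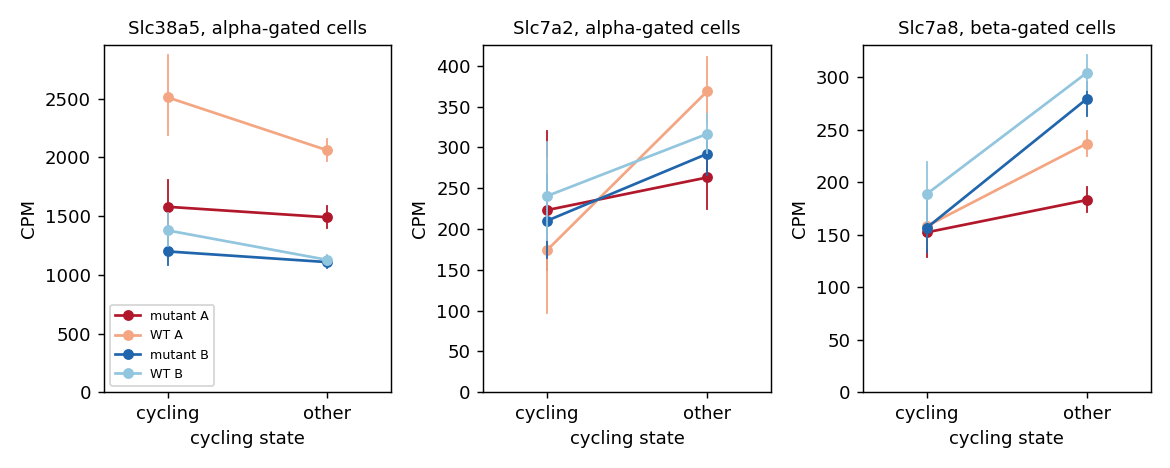
Slc38a5 and Slc7a2 in alpha-gated cells and Slc7a8 in beta-gated cells, in CPM, for cycling cells (left) and other cells (right) of each library, with bars for the exact 95% Poisson interval. Slc38a5 lies slightly higher and Slc7a2 lower in cycling alpha-gated cells of every library, and Slc7a8 lies lower in cycling beta-gated cells of every library.

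The 2 mutant libraries were then set against the 2 WT libraries, the question the series was made for. In alpha-gated cells Slc38a5 averaged 1303 ± 263 CPM in the libraries labelled mutant and 1616 ± 675 CPM in those labelled WT (SD, n = 2 each), with 0.711 times the WT level within A and 0.981 times within B. By edgeR its log2 difference was -0.30 ± 0.56 (adjusted p = 0.9998). Slc7a2 averaged 267 ± 13.6 CPM in mutant and 329 ± 29.3 CPM in WT libraries, a log2 difference of -0.30 ± 0.52 (adjusted p = 0.9998). Slc7a5 averaged 52.4 ± 36.1 CPM in mutant and 89.1 ± 79.96 CPM in WT libraries, a log2 difference of -0.76 ± 0.69 (adjusted p = 0.9998), and was lower in the mutant library of both numbers. With WT A left out the differences of Slc38a5 and Slc7a5 turned to 0.10 and 0.52.

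In beta-gated cells Slc38a5 averaged 228 ± 172 CPM in mutant and 228 ± 204 CPM in WT libraries, a log2 difference of 0.02 ± 0.79 (adjusted p = 0.9998), from values that lay on opposite sides within A and within B. With mutant B or WT B left out it turned to -1.19 or -0.73. The insulin genes also moved with the libraries there, at medians of 29.7% and 3.48% of the counts of a beta-gated cell that was not cycling in mutant A and mutant B and 14.8% and 7.98% in WT A and WT B. Cells with a hormone at 1% or more but none at 2% entered no gate. They numbered 133 in mutant B, against 6, 17 and 9 in mutant A, WT A and WT B. Slc38a5 stood at 519 CPM in those of mutant B, and at 253 and 340 CPM in those of mutant A and WT A. In WT B it stood at 2189 CPM, with 77 of 82 counts from 2 cells. The part of the insulin genes and of these cells in the result was not tested. The change of Slc38a5 between genotypes did not pass a test of difference between alpha-gated and beta-gated cells (-0.51 ± 0.55, adjusted p = 1), and leaving out either B library turned it to 0.24 or 0.38.

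None of the 7 genes was called by edgeR between genotypes in alpha-gated cells, in beta-gated cells or in the difference between them, and none had an unadjusted p under 0.05. Among all genes edgeR called 0% in each of the 3 comparisons, with 12 of 11169 genes, 39 of 16235 and 259 of 16516 under an unadjusted p of 0.05, and DESeq2 called 0%, 0% and 0.00313% of all genes and none of the 7. With 2 libraries a group a p that misses the threshold does not show that the genes do not differ. In simulated data the edgeR fit of alpha-gated cells called 0 of 100 genes changed 2-fold and 4 of 100 changed 4-fold.

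None of the other lists had a gene called in alpha-gated cells between genotypes, nor one with an unadjusted p under 0.05, in 17 other transporters, 23 ATF4 response genes, 27 mTORC1 genes and 16 enzymes tested. The smallest p of each list belonged to Slc36a1 (-0.68 ± 0.63), Chac1 (1.2 ± 1.011), Wdr59 (0.87 ± 0.60) and Arg1 (-0.85 ± 0.53), all at an adjusted p of 0.9998 by edgeR, followed by Slc7a7 (0.87 ± 0.90), Slc16a10 (-0.40 ± 0.53), Sars (-0.67 ± 0.62), Eif2ak4 (-0.88 ± 0.82), Mtor (-0.63 ± 0.60), Fnip1 (0.56 ± 0.55), Bckdhb (-0.42 ± 0.77) and Gpt2 (0.37 ± 0.71). DESeq2 called 0 genes in each of the 4 lists.

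Genes with the most similar pattern were sought over 26 sums of at least 20 cells per library and cell group, among 11962 genes, as Pearson's r of log2(CPM + 1). The points share libraries, depth and cell groups, so r is a description. Slc38a5 was most like Pim2 (r = 0.928), a kinase gene, Prps1 (r = 0.881), which encodes a nucleotide synthesis enzyme, and Wnk3 (r = 0.878), a kinase gene. Slc38a4 was most like Gtpbp8 (r = 0.924), the imprinted RNA gene Meg3 (r = 0.924) and Grtp1 (r = 0.871). Slc7a2 was most like the lipoprotein lipase gene Lpl (r = 0.816), Satb1 (r = 0.795) and Rad51ap2 (r = 0.794). Slc38a2 was most like Rnf122 (r = 0.907), Prkar2a (r = 0.901) and Minpp1 (r = 0.891). Slc7a5 was most like Klc2 (r = 0.854), Tbrg1 (r = 0.848) and Mbd6 (r = 0.847), Slc7a8 most like Glrx (r = 0.882), Galnt12 (r = 0.855) and Madd (r = 0.854), and Slc3a2 most like Slc31a1 (r = 0.803), Akr1b3 (r = 0.786) and Sepp1 (r = 0.759).

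Among the 7 genes themselves Slc38a5 and Slc7a8 were the most alike (r = 0.808), followed by Slc7a2 and Slc7a8 (r = 0.655). The heavy chain Slc3a2 was like neither of its light chains, with r = 0.335 for Slc7a8 and r = -0.253 for Slc7a5. Slc38a2 went against Slc7a8 (r = -0.505) and Slc38a5 (r = -0.458), with its high levels in the mesenchymal-like and endothelial-like cells.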

How the data were processed

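The authors deposited whole-number counts per gene and barcode for 4 inDrop libraries of mouse islet cells, not normalized. Per the submitters' processing notes the builds were GRCm38 and GRCh38; aligner, counter and barcode filter were not given in the sources used here. Per the labels, there are 2 biological replicates per genotype. Of 6948 barcodes, those with at least 500 counts, 250 genes and at most 25% mitochondrial counts were kept (6566), and Scrublet (scanpy 1.11.5, seed 1) removed 40 (0.609%) as doublets. Cells with several hormones at 2% entered no gate. Cells with every hormone under 1% were named by 7 marker lists (at least 3 markers and 3 times the next list). Counts were summed per library and gate, for sums of at least 10 cells, and tested with edgeR 4.0.16 (TMM, its filter on low counts, quasi-likelihood F test, adjusted p under 0.05); DESeq2 1.42.0 was an alternative. The SE of a log2 difference is its size over the square root of F. Gates of a library were paired by library; genotypes were compared without a block. Of the fits, 3 were tested on simulated data with 100 genes changed 2-fold and 100 changed 4-fold. Between alpha-gated and beta-gated cells 58 and 88 of these were called, along with 25 unchanged genes. For cycling alpha-gated cells it was 36 and 93, with 11 unchanged genes. For genotype in alpha-gated cells it was 0 and 4, with 3 unchanged genes. CPM intervals are exact Poisson. The members and gene lists were chosen with earlier results of these data known. Named were all 7 genes and the 3 most similar genes (at least 200 counts, predicted genes passed over). The 3 genes of smallest p in each list were named for alpha-gated against beta-gated cells, cycling alpha-gated cells and genotype in alpha-gated cells. Psat1 and Arg1 in alpha-gated against beta-gated cells, Arg1 against delta-gated cells, Slc6a17 and the list genes given for cycling beta-gated cells were added after their values were seen. Results for some genes are not reported here.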

Additional observations from a re-analysis of the deposited data

Results flagged for a closer look

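Slc38a5 in beta-gated cells went opposite ways in the 2 pairs of libraries that share a title number. It stood at 107 CPM in mutant A against 372 CPM in WT A, 0.288 times as high, and at 349.8 CPM in mutant B against 83.4 CPM in WT B, 4.19 times as high. The difference between the pairs was not tested. Sin3a in beta-gated cells stood at 51.7 CPM in mutant A against 25 CPM in WT A, and at 18.5 CPM in mutant B against 41.04 CPM in WT B, so the libraries lower in Slc38a5 were those higher in Sin3a, and its part was not tested. Delta-gated cells gave 0.489 times within A and 1.995 times within B, from 5 to 32 counts.

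Cells low in all hormones and named by no marker list held Slc38a5 at 1280 CPM in mutant A, against 82.6 CPM in WT A, and at 141 CPM in mutant B, against 24.3 CPM in WT B. In mutant A 149 of the 166 counts came from 2 of 25 cells, 116 of them from 1 cell, and without those 2 cells the level was 151 CPM. In mutant B 35 of 66 counts came from 2 of 141 cells, and without them it was 69.2 CPM.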

How the results depend on the processing

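The calls of Slc38a5 against beta-gated, delta-gated and PP-gated cells and of Slc7a2 against beta-gated and delta-gated cells held their direction and side of the threshold in all 14 alternatives run for each. The number of the 7 genes called between alpha-gated and beta-gated cells was 4, and 7 without a filter on low counts, 2 with no replicate block, 5 with hormone genes left out of the totals (Slc7a5 gained, adjusted p = 0.04456 by edgeR), 5 in cells under the cycling threshold (Slc38a2 gained, adjusted p = 0.04896), and 4 to 5 with a library left out (Slc7a5 gained without WT B, adjusted p = 0.02183). Over all genes edgeR called 3699 in the main fit of alpha-gated against beta-gated cells (22.4% of 16516). It called 4517 without the filter and 3741 with hormone genes left out. Against PP-gated cells the number of the 7 genes called was 3, 2 with no replicate block, and 1 with gates at 5%, a fit that also had 2 libraries in place of 4. Between cycling and other alpha-gated cells it was 0, and 1 without a filter and 1 with all 4 libraries; the alternative without WT A was not run there, since WT A was not in the fit. Between cycling and other beta-gated cells it was 1, and 3 without a filter and 0 with no replicate block. Against delta-gated cells it was 4, and 3 to 4 with a library left out. In the genotype comparisons it was 0 in every alternative. The signs that turned were all of differences that were not called: Slc38a5 in cycling alpha-gated cells without a filter (-0.10), between genotypes in alpha-gated cells with a library left out (-0.64 to 0.10), in beta-gated cells without a filter (-0.0598) or with a library left out (-1.19 to 1.64), and in the difference between gates (-1.37 to 0.38), and Slc7a5 in alpha-gated cells (-1.56 to 0.52). The cause was not tested. Where 1 library was left in a group, it is taken to vary like the others.

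What equal title numbers stand for was not given in the sources used here. Their deviations from the group mean correlated at 0.226 across 5012 genes in alpha-gated and 0.0838 across 9804 genes in beta-gated sums, and with the number as a replicate block 0 of the 7 genes were called between genotypes in either gate, with Slc38a5 at -0.26 in alpha-gated and 0.18 in beta-gated cells; among all genes the block gave 0 and 1 calls. Depth limits the PP-gated and delta-gated values, many of which rest on under 25 counts, and intervals cover counting error only.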
